A study of Rattus norvegicus with 15 samples.

Results

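The olfactory receptor (OR) genes of rat chromosomes 7 and 10 were examined in the olfactory epithelium, the sensory sheet at the back of the nose. They were taken as the array probes, control spots left out, whose gene name starts with Olr, the rat symbol for an OR, and which the array annotation places on chromosome 7 or 10. The rule uses no measured value. It gave 200 of the 1112 OR probes and of the 41012 probes on the array, 90 on chromosome 7 and 110 on chromosome 10. These probes stand for 199 gene names, because Olr1029 has 2 probes.

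RNA came from 8 Brown Norway rats labeled as 6 weeks old, 4 males (rats 1, 2, 5 and 6) and 4 females (rats 3, 4, 7 and 8), none of them treated. The epithelia of the nostrils were kept apart as A and B, and both were measured in 7 rats. Male 1 gave nostril A alone, so there were 7 male and 8 female arrays. The labels do not say which letter is left or right, so a letter need not mark the same side in every rat, and they do not tie a rat to its supplier. The study's methods give the sample left out for RNA quality as the left one of a male from Elevage Janvier, which fits male 1 alone, and suppliers were not compared here. Each RNA was labeled with the dye Cy3 and hybridized to an Agilent whole rat genome array. Levels are log2 ratios of a probe's signal to the median signal of its array, with values under 0.1 of that median raised to it (-3.32 on the log2 scale). The number of rats limits the precision.

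ORs are receptors in the membrane of sensory neuron cilia that bind odorants and activate the olfactory G protein. A mature olfactory neuron expresses one OR gene, usually from one allele, so that in a tissue sample the level of an OR transcript follows how many neurons chose that gene and how much RNA each makes. These cannot be told apart in bulk RNA. Neurons that chose a given OR lie scattered within a zone of the epithelium, and zones run from dorsal to ventral along the turbinates. OR genes lie in clusters that grew by duplication, so neighbors are often near relatives.

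Current RefSeq names (assembly GRCr8) were found for all 200 probes, 194 of them through the accession of the array and all 200 through the symbol or a synonym, and each gene was protein coding and on the chromosome the array gives. In the current names, the number after Or is the family and the letters are the subfamily. A subfamily could be read for 173 probes. The largest was Or6c, with 45 members, followed by Or1e (19), Or1f (17), Or2t (11), and Or2ak, Or2y and Or7a (10 each).

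The members fell into 11 runs of neighbors separated by at least 1 Mb, given in rn3 coordinates of the array annotation. On chromosome 7 the longest run, chr7:2314346-8465470, held 66 members from Olr875 to Olr1072, and all 45 Or6c members were in it. The next, chr7:12016512-12622361, held 13 members from Olr1073 to Olr1088, 10 of them Or7a. Smaller runs held Olr1091 to Olr1093 (3 members), Olr1096 alone, and, far along the chromosome at chr7:137002819-137316820, Olr1102 to Olr1111 (7 members, 5 of them Or8s). On chromosome 10, Olr1356 to Olr1382 (18 members, 17 of them Or1f) lay at chr10:11951390-12752494, Olr1383 to Olr1401 (14 members of Or2y and Or2v) at chr10:34221251-35001006 and Olr1404 to Olr1411 (6 members) at chr10:36545090-36635761. The run Olr1413 to Olr1463 (35 members, with all Or2t and Or2ak) lay at chr10:44109611-45910311, Olr1467 to Olr1519 (34 members, 19 of them Or1e) at chr10:60259305-61647093 and Olr1521 to Olr1523 (3 members) at chr10:76200708-76215726.

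Relatives this close can share a probe's signal, and the probe sequences show how far. Each probe is a 60-base oligonucleotide, read from the scanner files. Of all pairs of members, 2 had probes with at least 90% of the 60 bases matching at the best ungapped shift. They are shown with the bases that differ within the overlap in capitals.

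Olr1409: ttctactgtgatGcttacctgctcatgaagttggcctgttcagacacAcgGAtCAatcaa

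Olr1410: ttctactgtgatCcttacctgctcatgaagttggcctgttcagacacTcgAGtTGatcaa

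Olr922: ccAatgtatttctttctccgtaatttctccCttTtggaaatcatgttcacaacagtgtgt

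Olr951: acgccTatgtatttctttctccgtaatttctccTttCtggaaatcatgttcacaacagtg

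Olr1409 (chr10:36610333-36610392, plus strand) and Olr1410 (chr10:36622217-36622276, plus strand) were each detected on 15 arrays, and their nostril differences in the 7 rats followed each other with r = 0.98, so the signals of this pair cannot be assigned to one gene. Olr922 (chr7:4113650-4113709, minus strand) was detected on 13 arrays and Olr951 (chr7:4858943-4859002, minus strand) on 5. The array annotation lists more than 1 mRNA for 46 of the 200 probes and more than 1 gene for 44 of them, which leaves the gene behind the signals of these 44 uncertain as well. The 2 probes of Olr1029 (chr7:7205859-7205918 and chr7:7206253-7206312, minus strand) did not give the same picture, the first well above background on 5 arrays and the second on 0.

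Olr1029, first probe: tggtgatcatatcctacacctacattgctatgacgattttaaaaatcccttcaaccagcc

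Olr1029, second probe: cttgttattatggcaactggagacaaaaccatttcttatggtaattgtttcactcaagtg

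The results below turn most on 5 further probes. They are shown because the receptors they read had the largest nostril difference of the Or6c and Or2t subfamilies in female 4 (Olr892 and Olr1425), ran the same way in all rats (Olr995 and Olr1072), or gave the smallest p between the sexes (Olr1472). Lower case is used throughout, since no base of these is singled out.

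Olr892 (Or6c2, chr7:3231281-3231340, minus strand): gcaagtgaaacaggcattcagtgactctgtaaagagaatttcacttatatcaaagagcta

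Olr1425 (Or2t47, chr10:44410698-44410757, minus strand): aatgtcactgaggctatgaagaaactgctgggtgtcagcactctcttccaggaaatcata

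Olr995 (chr7:6336349-6336408, plus strand): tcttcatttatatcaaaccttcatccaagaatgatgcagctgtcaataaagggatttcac

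Olr1072 (Or9k7, chr7:8465411-8465470, minus strand): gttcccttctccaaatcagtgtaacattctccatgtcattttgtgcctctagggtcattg

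Olr1472 (Or1e21, chr10:60345960-60346019, plus strand): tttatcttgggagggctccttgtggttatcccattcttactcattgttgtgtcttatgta

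The tissue label was checked against marker genes. All 7 mature olfactory neuron genes with a probe (among them Omp, the olfactory marker protein, and Cnga2 of the odorant-gated channel), all 5 immature neuron genes and all 4 sustentacular (supporting) cell genes were expressed. So were 3 of 3 red blood cell genes, 2 of 3 genes of ciliated respiratory cells, 3 of 4 bone genes and 3 of 4 leukocyte genes, against 1 of 2 basal cell genes (Krt14 was well above background on 0 arrays) and 1 of 3 muscle genes. Trpc2, a channel of vomeronasal neurons, was expressed by 1 of its probes. The 15 arrays lay on 4 slides. Slides 1 and 2 held rats 1 to 4, and slides 3 and 4 held rats 5 to 8. Slide 1 held 3 male arrays and nostril A of female 3, slides 2 and 4 held females and slide 3 held males, so sex and slide can hardly be told apart. Female 3 is the only rat whose nostrils were on different slides.

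The first question was how many of these ORs the tissue expressed. By the definitions of the study, a probe well above background on at least 11 of the 15 arrays was expressed, on 1 to 10 weakly expressed, and on 0 not expressed. Of the 200 members, 136 (68.0%) were expressed, 34 (17.0%) weakly expressed and 30 (15%) not expressed, and 119 were detected on all 15 arrays. The share expressed was 64.5% of the 912 other OR probes and 65.1% of all probes. Chromosome 7 (61 of 90) and chromosome 10 (75 of 110) had like shares.

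**Figure D1:**
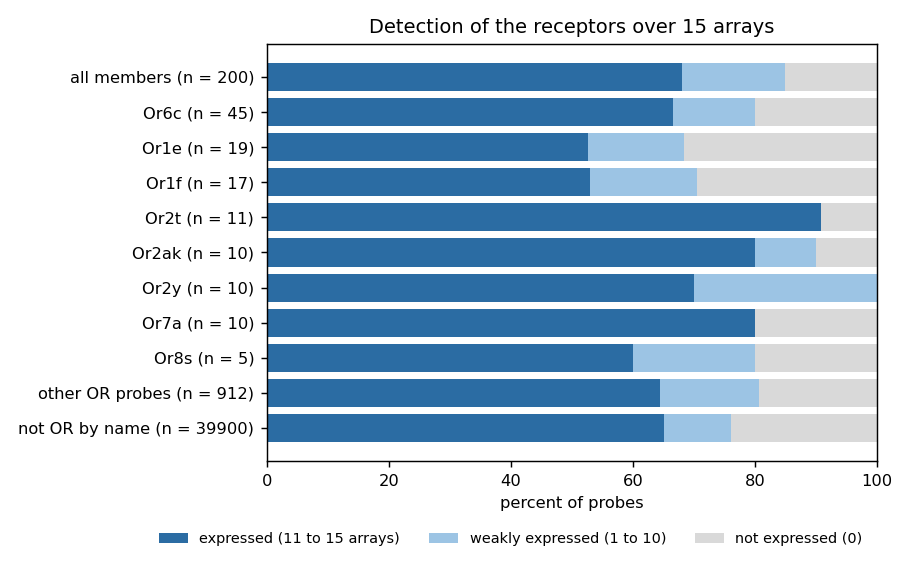
Percent of probes (x axis) that were expressed, weakly expressed or not expressed over the 15 arrays, for all 200 members, for each subfamily with at least 5 members, for the other OR probes and for probes not named as ORs. Or2t has 10 of 11 members expressed, while Or1e and Or1f have about as many weakly expressed or not expressed as expressed.

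The share varied along the chromosomes. In the run Olr1413 to Olr1463 on chromosome 10, 31 of 35 members were expressed and 2 were not expressed. In the Or1e run Olr1467 to Olr1519, 17 of 34 were expressed and 8 were not. By subfamily, Or2t stood at 10 of 11 expressed, Or2ak at 8 of 10, Or7a at 8 of 10, Or2y at 7 of 10 (with 3 weakly expressed), Or6c at 30 of 45, Or1f at 9 of 17 and Or1e at 10 of 19. Members whose probe lists several mRNAs were expressed in 40 of 46 cases, and those listing 1 or none in 96 of 154. The GC content of the probes also moved with detection, with a median of 43.3% in expressed, 40.0% in weakly expressed and 38.3% in not expressed members. The part of shared targets or GC content in detection was not tested.

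At the ends of the runs, Olr875, Olr1072, Olr1091, Olr1093, Olr1102, Olr1111, Olr1356, Olr1382, Olr1383, Olr1401, Olr1413, Olr1467, Olr1519, Olr1521 and Olr1523 were expressed. Olr1073 and Olr1088 were not well above background on any array. Olr1096, Olr1404, Olr1411 and Olr1463 were detected on 1, 2, 1 and 4 arrays. Of the 14 members named here for their PCR primers or a mention in the study's main text, 13 were expressed on all 15 arrays (Olr889, Olr1064, Olr1356, Olr1384, Olr1386, Olr1401, Olr1415, Olr1431, Olr1448, Olr921, Olr995, Olr1055 and Olr1079). The 14th was Olr1407, well above background only in nostril B of male 2, at -1.94 on the log2 scale. Olr922 and Olr962, which a supplement of the study lists, were detected on 13 and 14 arrays.

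The number of members detected per array ran from 126 (nostril A of male 6) to 162 (nostril B of female 4), with a median of 141 on the 7 male arrays and 143 on the 8 female arrays. Over all probes, 64.0% to 70.1% were detected per array. In all, 14 members were detected in females only and 2 in males only, each of them on 6 or fewer arrays, with Olr1500 (6 female arrays) the most frequent. There was 1 female array more than male arrays, and over all probes 3.55% were detected in females only and 2.12% in males only (4.50% and 1.86% of the other OR probes). None of the 16 reached the 7 arrays that the tests required.

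The study asked whether borderline calls were shared by the nostrils of a rat. In the 7 rats that gave both nostrils (14 arrays), 7 members lacked the call on exactly 2 arrays, and in 0 of the 7 were both arrays of the same rat. Another 8 members had the call on exactly 2 arrays, again with 0 of 8 in the same rat. Over all probes, 106 of 382 (27.7%) and 83 of 657 (12.6%) were of the same rat. The difference from all probes was not tested. Of the 8 members with 2 calls, 4 chosen after their values were seen (Olr932, Olr947, Olr1392 and Olr1404) had both calls in nostril B of female 3 and nostril B of female 4, that is, in different rats.

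Levels were then compared within rats. Over the 143 members detected on at least 7 arrays, the number that entered every test below, the median SD between the nostrils of a rat was 0.324 on the log2 scale, against 0.114 for the 26811 tested probes not named as ORs. The other 620 OR probes had 0.373. Dim probes vary more, so members were set beside probes of like mean level. At a level of 0 to 1 the median SD was 0.351 in 27 members and 0.133 in other transcripts, at 1 to 2 it was 0.30 in 30 members and 0.113, and at 2 to 4 it was 0.254 in 27 members and 0.0946. Below an array's median the ratio was smaller, 1.76 times at -2 to -1. A list of odor transduction, receptor export and other neuronal genes, with the transcriptional regulators Lhx2, Ldb1, Ebf1 and Atf5 among them (29 tested probes of 21 genes), had a median SD of 0.0949 between nostrils, and most of its probes had a higher signal than the median member. With another background correction and normalization (normexp with an offset of 50, then quantile) the median SD of the members fell to 0.164 between nostrils and 0.122 between rat means. The offset is added to every signal before the log and narrows log differences, most at low signals. The SD of probes not named as ORs is not given for that setting.

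**Figure D2:**
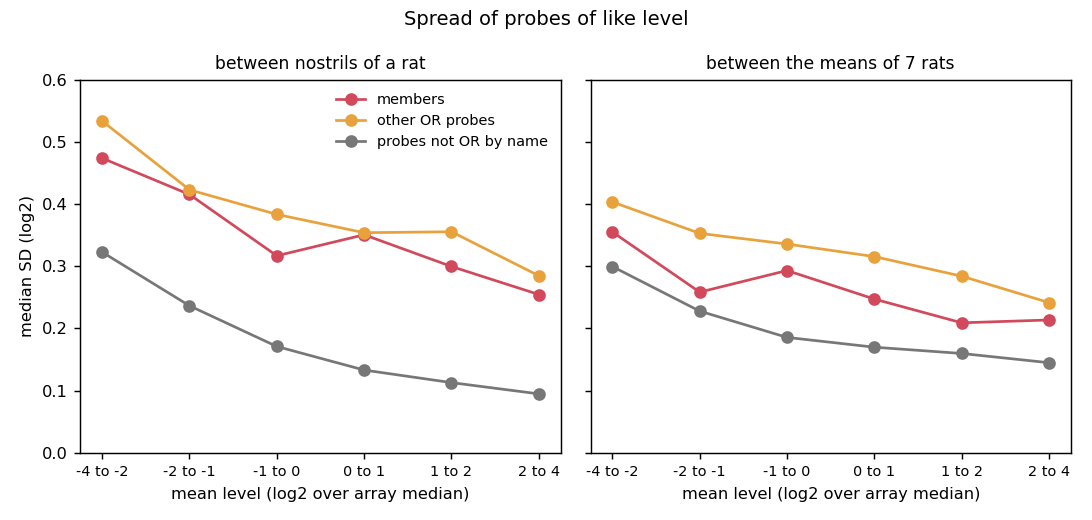
Median SD (log2) between the nostrils of a rat (left) and between the means of 7 rats (right) against the mean level of the probes, for members, other OR probes and probes not named as ORs. On the left the members lie well above the probes not named as ORs at every level, 0.30 against 0.113 at a level of 1 to 2, and on the right the lines are closer, 0.209 against 0.160.

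The spread between rats was closer to that of other transcripts. The means of the 7 rats with both nostrils had a median SD of 0.247 in the members, 0.319 in the 620 other OR probes and 0.154 in probes not named as ORs. In 106 of the 143 members (74.1%) the SD between nostrils exceeded the SD between rat means, as it did in 63.2% of the other OR probes and 33.5% of probes not named as ORs. A rat mean still holds part of the nostril difference. The steadiest member was Olr1416 (Or2t48e), with an SD between nostrils of 0.0696 and array values from 2.24 to 2.62. Its near neighbor Olr1425 had an SD of 0.574.

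In single rats the differences were large and involved many members at once. A difference past 2-fold in at least 1 rat was seen in 37 of 143 members, where 8.11% of all 27574 probes and 37.1% of the 620 other OR probes reached it, and in 26 members when both nostrils of that rat had to be well above background. Per rat, the members past 2-fold numbered 2 in male 2 (1.45% of all probes), 4 in female 3 (2.78%), 10 in female 4 (3.01%), 14 in male 5 (1.43%), 15 in male 6 (1.96%), 3 in female 7 (1.31%) and 4 in female 8 (0.631%). In female 4, male 5 and male 6 the other OR probes had higher shares (18.9%, 14.5% and 11.3%) than the members (6.99%, 9.79% and 10.5%). Of the 37, 25 did so in 1 rat, 9 in 2 rats and 3 in 3 rats. The 3 were Olr880, Olr1431 and Olr1461, and all differences of Olr880 and Olr1461 were against an array not well above background. In 2 members (Olr922 and Olr1461) the excess lay in nostril A of one rat and nostril B of another, each time against such an array. Of the 52 differences past 2-fold, 21 had an array of the pair that was not well above background.

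The median over the 143 members moved with the rat. Nostril B minus nostril A had a median of 0.42 in female 4, where 121 members were higher in B and 22 in A. It was 0.36 in male 5 (98 against 45) and 0.27 in male 6 (116 against 27). It was near 0 in male 2 (-0.05), female 3 (-0.08), female 7 (-0.01) and female 8 (-0.08). The 620 other OR probes had 0.49 in female 4, -0.10 in male 5 and 0.18 in male 6. Probes not named as ORs had medians from -0.05 to 0.08, and the summed signal of the mature neuron markers differed between nostrils by -0.18 to 0.24 (-0.01 in female 4, -0.08 in male 5 and 0.24 in male 6). Bone markers were lower in nostril B of female 4 and male 5, by -0.49 and -0.44, and 0.10 higher in that of male 6. Other marker lists moved as well in these 3 rats. From female 4 to male 6, leukocyte markers differed by 0.03, -0.77 and 0.01, and red blood cell markers by 0.31, -0.39 and 0.01. Markers of ciliated respiratory cells differed by 0.45, 0.15 and 0.23. The 1 expressed muscle marker, Tnnt3, a dim probe detected on 12 arrays, differed by 0.13, 0.06 and -1.05. The 1 expressed basal cell marker differed by -0.32, -0.27 and -0.01, immature neuron markers by -0.03, -0.07 and 0.22, sustentacular markers by 0.10, -0.07 and 0.14, and the vomeronasal marker Trpc2 by 0.33, 0.17 and 0.14. Their part in the member differences was not tested.

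**Figure D3:**
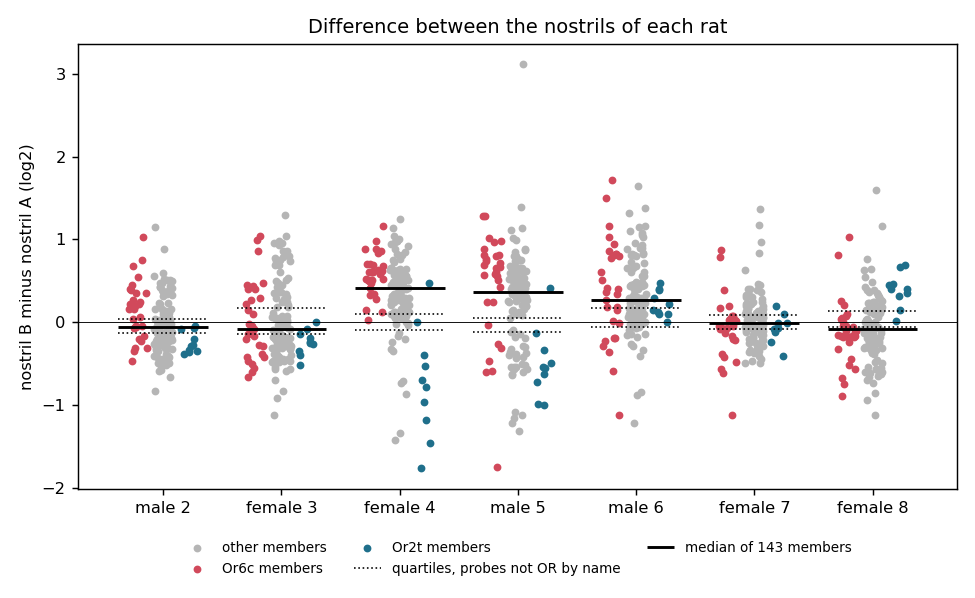
Log2 difference of nostril B minus nostril A for each of the 143 tested members (points) in 7 rats, with Or6c members in red and Or2t members in blue. Thick lines are medians over the members, and dotted lines the quartiles of 26811 probes not named as ORs. In female 4 and male 5 the Or6c members lie mostly above 0 and the Or2t members mostly below it, and in female 8 the Or2t members all lie above 0.

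Subfamilies differed in direction within the same rat. In female 4 all 30 tested Or6c members were higher in nostril B, with a median of 0.59, while 8 of 10 Or2t members were higher in nostril A, with a median of -0.74. In male 5 the medians were 0.63 for Or6c (23 of 30 higher in B) and -0.54 for Or2t (9 of 10 higher in A). In female 8 the order turned, with Or6c at -0.13 (21 of 30 higher in A) and Or2t at 0.40 (10 of 10 higher in B). Male 6 had both above 0, at 0.38 and 0.18. The other subfamilies with at least 8 tested members had medians above 0 in female 4 and male 5, as Or6c did. In female 4, Or1e had a median of 0.43, Or1f 0.51 (10 of 10 higher in B), Or2ak 0.28 (9 of 9) and Or7a 0.30, and in male 5 these had 0.35, 0.26, 0.42 (9 of 9) and 0.39. Or2y had 0.04 and 0.22. Or7a members were all higher in nostril A of female 8 (8 of 8), with a median of -0.30. In female 7 every subfamily with at least 8 tested members had a median between -0.07 and 0.18.

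Olr892 (Or6c2) shows the pattern of its subfamily in female 4. Its level was 0.70 in nostril A and 1.86 in nostril B of female 4, 0.99 and 1.99 in female 3, and 0.81 and 0.50 in male 5. Over all arrays it ran from 0.50 to 1.99, so the nostrils of female 4 lay near both ends of its range. Olr1425 (Or2t47) was at 4.50 in nostril A and 2.73 in nostril B of female 4, a 3.39-fold difference. It was at 4.67 and 3.69 in male 5, and at 3.64 and 4.33 in female 8. Male 1, with nostril A alone, was at 2.89, next to the lowest value. The other 8 arrays lay between 3.93 and 4.41.

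The opposite directions were found side by side within 1 cluster. In the chromosome 10 run Olr1413 to Olr1463, the 9 members from Olr1416 to Olr1428 (chr10:44162478-44441159), 8 of them Or2t, had a median nostril difference of -0.96 in female 4 and -0.62 in male 5. The next stretch of relatives, Or2ak from Olr1434 to Olr1450 (chr10:44592257-44925532, 9 tested), had 0.28 and 0.42, with 9 of 9 higher in nostril B in each rat. The stretch from Olr1451 to Olr1456 (chr10:44951883-45011309, 4 tested of 5 members), which holds the Or2t members Olr1452 and Olr1455, was again higher in nostril A in both rats, with medians of -0.58 and -0.42. In female 8, these stretches had medians of 0.46, -0.08 and 0.29. Olr1431 (Or2ab1), between the first and the second stretch, was 1.05 higher in nostril B of female 4, 1.64 in male 6 and 1.37 in female 7. The stretches were picked after the values were seen and carry no test.

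**Figure D4:**
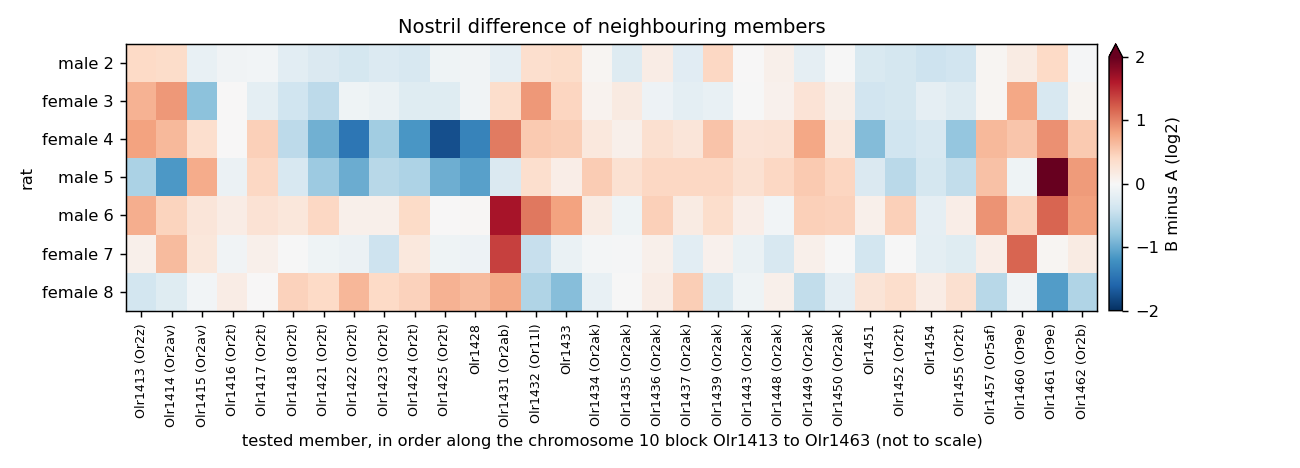
Nostril B minus nostril A (log2, color) for the tested members of the chromosome 10 run in their order along the chromosome, one row per rat. The Or2t members from Olr1418 on are blue (higher in nostril A) in female 4 and male 5 and red in female 8, the Or2ak members between them are pale red in female 4 and male 5, and Olr1461 in male 5 lies beyond the end of the color scale, with nostril A not well above background.

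The last run of chromosome 7 went with Or2t. Its 5 tested members (Olr1102, Olr1104, Olr1107, Olr1108 and Olr1111, the Or8s members and their neighbors) had a median of -0.70 in female 4, with 5 of 5 higher in nostril A, and -1.12 in male 5. They had 0.18 in male 6 and 0.19 in female 8. Olr1102 was at 0.89 in nostril A and -0.53 in nostril B of female 4, and at 1.11 and -0.19 in male 5. Male 1 had the lowest value, -0.62. The Or6c members, in the first run of the chromosome, had medians of the opposite sign in both rats.

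Single members differed by more, and those given here, apart from those with PCR primers or a mention in the study's main text, were chosen after their values were seen. Olr1461 (Or9e1b) was at -2.71 in nostril A of male 5, where it was not well above background, and at 0.41 in nostril B. Set against the lowest signal detected on the array of nostril A, nostril B was 7.11-fold higher. This is no strict bound, since a spot without the call can lie above that signal (Olr880 at -2.36 against -2.42 on that array). On the other 13 arrays it lay between -3.23 and -1.40. Olr982 (Or6c66b) was at -0.34 in nostril A and -2.08 in nostril B of male 5, against the direction of most Or6c members in that rat. Olr1055 (Or6c216) was at 1.56 and 0.44 in male 6. Olr1079 (Or7a38d) went from -0.45 to 0.80 in female 4 and from -0.12 to 0.87 in male 5, and Olr889 (Or6c88) from -0.79 to 0.38 in male 6.

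The likeness of members was described by how their nostril differences correlated. Over the 7 nostril differences, the median correlation between 2 members was 0.19 over all 10153 pairs, 0.47 over the 703 pairs of one subfamily and 0.17 over other pairs. Within a subfamily it was 0.60 for pairs under 50 kb apart, 0.46 at 50 kb to 1 Mb and 0.43 beyond. The other pairs had 0.51 under 50 kb (32 pairs), 0.06 at 50 kb to 1 Mb, 0.17 beyond and 0.18 on different chromosomes. They include every pair with any of the 16 tested members whose subfamily could not be read, so not all are known to differ in subfamily. Correlations of rat means over 8 rats had a median of 0.50 within a subfamily and 0.18 over the other pairs. They had no such course by distance within a subfamily (0.52, 0.48 and 0.54). Or2t had the highest value among subfamilies with at least 8 tested members, at 0.85 over 45 pairs, and its median was -0.31 with Or6c, -0.41 with Or2ak and 0.22 with Or2y. Or1f had 0.16, below that of all pairs. Some pairs of subfamilies had values like those within a subfamily. Or2ak had 0.53 with Or6c, between the 0.59 of Or2ak and the 0.45 of Or6c with themselves, and Or1e had 0.48 with Or7a, between the 0.44 of Or1e and the 0.53 of Or7a. The members share arrays and slides, so these values are descriptions. In 13 of the 10153 pairs the probes matched at 42 or more of 60 bases, and these had a median correlation of nostril differences of 0.74, against 0.19 in the other pairs. Within Or2t the median match was 21 bases and the highest 46.

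Whole profiles were compared in the same way. After centering each member on its mean, the nostrils of 1 rat correlated over the 143 members with a mean r of -0.01, from -0.35 (male 5) to 0.40 (female 8). Arrays of different rats had a mean r of -0.07. The other OR probes had a mean r of -0.06 between the nostrils of 1 rat (-0.39 to 0.47), and probes not named as ORs had 0.15 to 0.45. The highest correlation of any pair of arrays was 0.79, between nostril A of male 1 and nostril B of female 4, of different sexes and slides. These arrays were also the most alike in the other OR probes, at 0.73, and had 0.13 in probes not named as ORs. The nostril differences of 2 rats also ran together or apart, with r = 0.53 for male 2 and female 3, 0.39 for female 4 and male 5, and -0.42 for male 5 and female 8. Members are not independent of each other, so no p is given. Nqo1, a gene expressed in the dorsal zone and looked up after the member values were seen, had nostril differences of 0.24, 0.30, 0.66, -0.28, -0.38, 0.04 and 0.00 in rats 2 to 8. Its relation to the member differences was not tested.

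A consistent difference between nostrils A and B was tested next, with the rat as a block. None of the 143 members passed a false discovery rate of 1% or 5% (limma, Benjamini-Hochberg over all probes), nor did any other probe. At an unadjusted p under 0.05 there were 22 members (15.4%), 18 higher in B (3.43% of all probes) and 4 higher in A (2.45%), against 5.89% of all probes in either direction. Among the other OR probes it was 110 of 620 (17.7%). The count of members was 43 without female 8, 9 without female 4 and 13 without male 6, and the shares of all probes in these fits are not given here. The median of B minus A over the members was 0.14, and 0.01 over all probes.

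The smallest p belonged to Olr995, Olr1072, Olr1064 and Olr1071, all in the long chromosome 7 run. Olr995 was higher in nostril B in 7 of 7 rats, from -1.06 to -0.16 in male 6 and from -0.21 to 0.43 in female 4, and by 0.09 in female 7. Its mean difference was 0.44 (SE 0.0984, limma, adjusted p = 0.781), and its probe lists 3 mRNAs. Olr1072 (Or9k7) was also higher in B in 7 of 7 rats, by 0.63 (SE 0.167, limma adjusted p = 0.781), with 1.13 in female 4 and 0.11 in male 2 and male 5. Nostril A of male 6 was not well above background for Olr1072. Set against the lowest signal detected on that array, nostril B was 2.12-fold higher there. Olr1064 (Or6c74) differed by 0.37 (SE 0.116) and Olr1071 (Or9k2b) by 0.49 (SE 0.159), each lower in nostril B of female 8. Olr995 and Olr1072 were the only members of the 143 with the same sign in every rat, a share of 1.40% against 1.72% of all probes. The interaction of sex and nostril gave 0 members at 1% or 5% and 12 at an unadjusted p under 0.05 (limma), or 8.39%, against 2.36% of all probes and 15.5% of the other OR probes.

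Whether rats of one sex differed by more than their nostrils was tested with an F-statistic. None of the 143 members passed 1% or 5% (limma, Benjamini-Hochberg), where 2.82% of 27574 probes passed 1% and 14.6% passed 5%. At an unadjusted p under 0.05 there were 20 members (14%) against 35.3% of all probes and 166 of 620 other OR probes. The count was 6 without female 8 and 31 without male 5, and 6 members passed 5% without female 4, 3 without male 6, 2 without male 5 and 1 without female 3. With all rats kept, Olr920 passed 5% under 75th percentile scaling (limma adjusted p = 0.0384), and Olr920 and Olr1416 did under quantile normalization, with or without normexp. The shares of all probes are not given for the fits that left out a rat or changed the scaling. Their member counts are thus without a background. With the slide as a block the number at an unadjusted p under 0.05 was 12, against 14.7% of all probes. In the list of transduction, export and other neuronal genes, 14 of 29 probes reached p under 0.05 and 5 passed 5% (Cnga4, Ric8b, Ldb1, Rgs2 and Ckmt1).

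The highest F was that of Olr920 (F = 5.93, limma, adjusted p = 0.0523). It was at -0.13 and -0.11 in the nostrils of female 3 and at -0.34 and -0.24 in male 5, but at -0.96 and -0.78 in female 4. The nostrils of each of these rats lay close together, while those of male 6 were at -1.14 and -0.57. Olr1417 (Or2t48b, F = 5.22, limma adjusted p = 0.0656) was lowest in male 2 (1.94 and 1.89) and female 8 (2.02 and 2.03), and at 2.21 to 2.79 elsewhere. Olr1467 (Or1e1c, F = 5.01) was lowest in female 8, at 1.44 and 1.22, and at 1.66 to 2.51 on the other arrays. Olr1416 (Or2t48e, F = 4.43) varied little, with rat means from 2.27 to 2.58. Olr937 (Or6c214b, F = 4.41) had its lowest rat mean in female 8 (-0.50) and its highest in male 1 (0.68), which the F-test did not include. Olr1439 (Or2ak6, F = 4.17) was at 3.31 to 4.10 in rats 1 to 4 and at 3.80 to 4.54 in rats 5 to 8, which lay on other slides. Its rat means did not overlap between these slide pairs, and that was so in 12 members (8.39%) and in 11.3% of all probes. Olr1509 (Or3a4, F = 4.01) and Olr950 (Or6c212, F = 3.96) followed. Apart from that of Olr920, these F values moved by over 1.5 times when a rat was left out. Without female 8, F was 3.30 for Olr1417, 1.43 for Olr1467, 0.88 for Olr937 and 2.16 for Olr1509. Without male 2 it was 2.73 for Olr1417, 1.98 for Olr1416 and 2.16 for Olr1439, which had 2.61 without male 6. Olr950 had 1.53 without female 4 and 10.20 without female 3, and without female 4 the F of Olr1417, Olr1467, Olr937, Olr1439 and Olr1509 rose to between 6.93 and 8.72. Olr1467 had 9.72 without male 6. With the slide as a block, and so only rats of one slide compared, F was 2.37 for Olr1417, 1.91 for Olr1416 and 0.96 for Olr1439. It was 7.18 for Olr920, 4.88 for Olr937, 5.32 for Olr1509, 4.46 for Olr1467 and 3.69 for Olr950. This F rests on fewer comparisons and leaves out male 2, so it is not the same test with a slide term added. Female 8 had the lowest rat mean of Olr1467, Olr937 and Olr1509, and the mean level of the members was lowest in this rat, at 0.26 against 0.34 to 0.63 in the other 7, while their median was lowest in male 2 (0.26) and next in female 8 (0.28).

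Females and males were compared over the rat means. None of the 143 members passed 1% or 5% (limma, Benjamini-Hochberg over 27625 probes), where 0.0434% of probes passed 1% and 0.0724% passed 5%. The methods' t-test on the 15 arrays gave 0 at 1% and 3 at 5% (Olr1024, Olr1356 and Olr1435), and limma on the 15 arrays as independent gave 1 and 4 (Olr1472 added). At an unadjusted p under 0.05 there were 15 members (10.5%), 13 higher in females (12.2% of all probes) and 2 lower (4.9%), against 17.1% of all probes in either direction, and the methods' t-test gave 20. With the slide as a fixed block 2 members (Olr1024 and Olr1399) passed 5%, and in that fit only slide 1 holds both sexes. With the slide pair as a fixed block, which holds 2 males and 2 females each, Olr1472 and Olr1082 passed 5%, and with the slide as a random block Olr1024 did. Olr1082 and Olr1399 are named after their values were seen. The shares of all probes passing are given for the fit over the rat means alone. The member counts of the other fits between the sexes are thus without a background. The rat means of the sexes did not overlap in 7 members, all higher in females (Olr1104, Olr1356, Olr1399, Olr1435, Olr1448, Olr1454 and Olr1472), a share of 4.90% where 8.82% of all probes were higher in every female. No member was higher in every male, where 2.52% of all probes were, and 11.3% of all probes did not overlap in either direction. The median sex difference was 0.08 over the members and 0.01 over all probes. Over the members it was 0.00 without female 3, 0.01 without male 2, 0.02 without female 4 and 0.14 without female 8. Leaving out any other rat gave 0.04 to 0.11. With the slide as a fixed block it was 0.25 over the members and 0.06 over all probes.

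**Figure D5:**
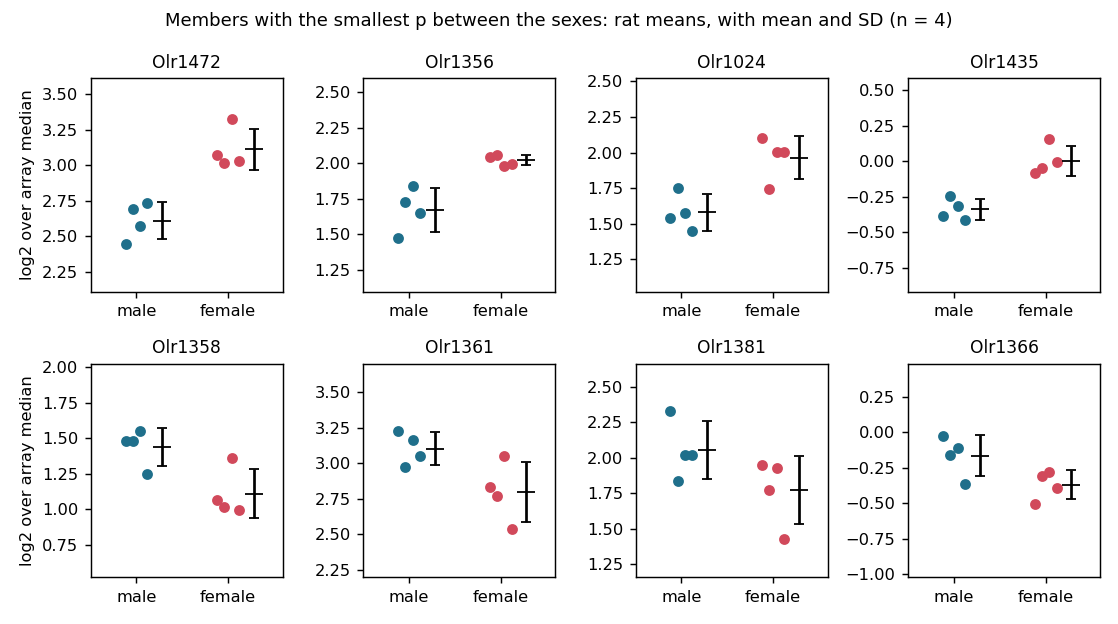
Rat means (points, average of the nostrils, log2 over the array median) of the 4 members with the smallest p in each direction between the sexes, with the mean and SD of 4 males and 4 females. Each panel spans 1.5 log2 units. The rat means of Olr1472, Olr1356 and Olr1435 do not overlap between the sexes, and those of the other 5 do.

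Olr1472 (Or1e21) had the smallest p. It lay at 2.36 to 3.01 on the male arrays (median 2.55) and at 2.62 to 3.53 on the female arrays (median 3.23). Single arrays overlapped, while rat means did not, at 2.45 to 2.73 in males and 3.02 to 3.33 in females. The female mean was 3.11 ± 0.15 (SD, n = 4 rats) and the male mean 2.61 ± 0.13 (SD, n = 4 rats), a 1.41-fold difference (log2 0.50, SE 0.0938, limma adjusted p = 0.0982). It was 0.48 among rats 1 to 4 and 0.52 among rats 5 to 8, and with the slide pair as a block the adjusted p was 0.0245 (limma). With the slide as a fixed block it was 0.92. Its probe matches that of Olr1479 at 50 of 60 bases.

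The differences of the other members named for the smallest p in females were smaller. Olr1356 (Or2c1, the first member of chromosome 10) lay at 1.48 to 2.02 on the male arrays and at 1.89 to 2.20 on the female arrays. It had female means of 2.02 ± 0.04 and male means of 1.67 ± 0.15 (SD, n = 4 each), a difference of 0.35 (SE 0.0863, limma adjusted p = 0.115). Olr1024 differed by 0.39 (SE 0.0995, limma adjusted p = 0.122) with overlapping rat means, since female 4 at 1.74 lay below male 2 at 1.75. Olr1435 (Or2ak5e) differed by 0.34 (SE 0.0932, limma adjusted p = 0.129), and its probe lists 4 mRNAs. In the fit that took the 15 arrays as independent, Olr1435 passed 1% (limma, adjusted p = 0.00975). With the slide as a fixed block the difference was 0.56 for Olr1356, 0.69 for Olr1024 and 0.11 for Olr1435 (limma adjusted p = 0.719).

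The 4 members with the smallest p among those higher in males were all Or1f receptors of the first chromosome 10 run. Olr1358 (Or1f29) had a female-minus-male difference of -0.33 (SE 0.107, limma adjusted p = 0.175), with rat means of 1.25 to 1.55 in males and 0.99 to 1.36 in females. Olr1361 (Or1f45) had -0.31 (SE 0.109), Olr1381 (Or1f30) -0.28 (SE 0.138) and Olr1366 (Or1f20) -0.20 (SE 0.105), and rat means overlapped in all of them. Olr1381 had -0.17 without female 8 and -0.09 with the slide as a fixed block. The nostrils of 1 rat could differ by more than the sexes. Olr1366 was at -0.62 in nostril A and 0.39 in nostril B of male 5. In the list of transduction, export and other neuronal genes 0 of 29 probes passed 5% between the sexes (limma), and 5 were higher in females at an unadjusted p under 0.05.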

How the data were processed

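Total RNA (RIN above 8.5 per the labels) was labeled with Cy3 and hybridized to Agilent whole rat genome arrays, scanned and read by the authors with Agilent Feature Extraction 9.5.1.1 (rn3). The deposited scanner intensity values are background-corrected processed signals. The authors' deposited value table holds ratio values, signals over the array and probe medians, and was used as an alternative. From the intensities, log2 ratios to each array's median were taken with a floor of 0.1 of that median, leaving out control spots and flagged outlier spots. Probes well above background on at least 7 arrays were tested with limma 3.58.1 (R 4.3.3, eBayes with trend, two-sided) and Benjamini-Hochberg adjustment over all probes. Sex was tested over 8 rats with nostrils averaged, nostrils over 7 rats with the rat as a block, since the labels tie both nostrils to one rat, and rats of 1 sex by an F-statistic against the nostril difference. Members named were the 4 with the smallest p in each direction between the sexes, the 4 with the smallest p between nostrils, the 8 with the highest F, those with PCR primers or a mention in the study's main text, the ends of each run and probe pairs matching at 90% or more. Members and lists were chosen with earlier results of these data known. Fits were tested on simulated data, where over 27574 probes 8% of differences of 0.5 (log2) and 61% of those of 1 were recovered between the sexes, 57% and 86% between nostrils, and 28% and 72% between rats. The changed probes were drawn from all tested probes, not from the members. The median SD between nostrils was 0.114 in probes not named as ORs and 0.324 in the members, so these shares do not give the recovery for members. The simulation between rats gave the rats no other spread. Alternatives changed scaling, background correction, floor, detection filter, slide terms and the rats included.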

Additional observations from a re-analysis of the deposited data

How the results depend on the processing

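The count of members past 1% stayed at 0 in the comparisons of sexes, rats and nostrils under the alternatives run, with 1 exception. When the 15 arrays were taken as independent, 1 member (Olr1435, 0.34, limma adjusted p = 0.00975) passed between the sexes, and in simulated data that fit made 42 false calls where the fit on rats made 2. Leaving out each rat gave 0 to 0 members in the 3 comparisons, 132 to 138 expressed members, and a median SD of 0.294 to 0.343 between nostrils and 0.212 to 0.252 between rats. With normexp background correction (offset of 50) and quantile normalization the SDs were 0.164 and 0.122. The part of the offset, which narrows log differences most at low signals, was not tested. Other definitions of detection gave 119 to 174 expressed members. Without the rat as a replicate block 0 members passed between nostrils (12 at an unadjusted p under 0.05), and the share of all probes in that fit is not given. All 8 members named for a sex difference kept its direction in 23 alternatives each. Their size moved by over 1.5 times with the slide as a fixed block in Olr1472 (0.92), Olr1356 (0.56), Olr1024 (0.69), Olr1435 (0.11) and Olr1381 (-0.09; -0.19 with a random block), and under normexp and quantile normalization in Olr1435 (0.15), Olr1358 (-0.22) and Olr1366 (-0.07). Dim members near background vary more.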
